A study of Rattus norvegicus with 13 samples.

Results

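The circadian clock and PAR bZIP genes examined here are 10 genes of the molecular clock and its first outputs, followed in the left ventricle of the rat heart. They were taken by gene name from the 1-colour Agilent arrays: Arntl (also called Bmal1), Clock and Npas2, the activators; Per1, Per2 and Per3, the period repressors; Dbp and Tef, the PAR bZIP output factors; and Nr1d1 and Nr1d2, the REV-ERB receptors. The 10 names matched 17 probes on 45 spots, of 30367 probes and 26115 gene names on the array. Of the 15367 genes with a probe bright enough to be tested, 9 were of this set, and Per1 was the member left out. The tissue came from male rats aged 45 weeks in 2 groups: 5 rats labelled as overexpressing ADBR3, which the series title writes as ADRB3, the gene of the β3-adrenergic receptor, and 4 WT rats. The promoter, construct and strain behind the overexpression and the hour at which the hearts were taken are not given in the sources used here. Rats are called by group and heart number, 1, 3, 5, 6 and 7 for ADBR3 overexpressing and 1, 3, 4 and 6 for WT. Rat 1 of each group is the mean of 2 labelings of its RNA, and 1 further array per group, a repeated hybridization of a rat that cannot be named from the labels, was left out.

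The clock of mammalian cells is a loop of transcription and repression that runs with the day. ARNTL pairs with CLOCK, or with its relative NPAS2, to switch on the Per and Cry genes, the REV-ERB receptors and the PAR bZIP factors through E-box sequences. The PER and CRY proteins then block that pair, and the REV-ERB proteins repress Arntl and Npas2, so that in heart, as in liver, Arntl peaks when Dbp and Nr1d1 are low. DBP and TEF bind D-box sequences and pass the rhythm to genes of metabolism and excitability.

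The promoters are shown because E-box and D-box sequences are sites through which these factors act. The part of these windows in how members below moved together or apart was not tested. All sequences are RefSeq's, build GRCr8, from the 250 bases before each annotated start, and all 10 members matched an entry. The letters CACGTG (E-box), CACGTT (a weaker E-box form), TTATGTAA (D-box) and AGGTCA (the hexamer that REV-ERB and ROR receptors bind) were searched on both strands, and capitals mark a match. The letters of Dbp (chr1:105312006-105312255, plus strand), Nr1d1 (chr10:84231813-84232062, minus strand) and Nr1d2 (chr15:9954784-9955033, plus strand), the 3 members whose levels followed each other most closely, read 5′ to 3′ as follows.
Dbp: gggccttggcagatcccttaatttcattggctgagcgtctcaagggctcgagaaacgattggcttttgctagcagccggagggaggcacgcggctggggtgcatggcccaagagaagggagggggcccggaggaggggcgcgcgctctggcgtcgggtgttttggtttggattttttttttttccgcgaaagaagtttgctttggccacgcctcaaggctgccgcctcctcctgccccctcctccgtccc
Nr1d1: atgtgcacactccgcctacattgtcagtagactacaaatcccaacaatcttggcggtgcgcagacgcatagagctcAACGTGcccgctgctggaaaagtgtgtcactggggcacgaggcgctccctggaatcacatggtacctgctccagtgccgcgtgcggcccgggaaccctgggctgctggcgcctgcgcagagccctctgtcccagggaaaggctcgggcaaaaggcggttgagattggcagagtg
Nr1d2: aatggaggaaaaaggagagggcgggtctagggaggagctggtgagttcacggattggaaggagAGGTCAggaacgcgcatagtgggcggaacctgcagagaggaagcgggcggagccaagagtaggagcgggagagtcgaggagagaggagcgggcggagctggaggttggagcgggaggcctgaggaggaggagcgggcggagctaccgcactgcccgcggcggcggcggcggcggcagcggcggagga
Shorter stretches of 30 bases hold the matches of Arntl (chr1:176766298-176766327, plus strand), Per2 (chr9:99497038-99497067 and chr9:99497167-99497196, minus strand) and Tef (chr7:115206617-115206646, plus strand).
Arntl, AGGTCA: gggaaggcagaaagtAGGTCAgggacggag
Per2, E-box form: aacgcgcgcggtCACGTTttccactatgtg
Per2, D-box: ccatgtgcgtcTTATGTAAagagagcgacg
Tef, E-box: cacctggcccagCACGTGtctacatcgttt

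The AGGTCA of Arntl began 15 bases before the start, and that of Nr1d2 began 187 bases before it. CACGTT stood in the windows of Per2 and, on the other strand, Nr1d1, and CACGTG in that of Tef and in a second window of Nr1d1. The windows printed in full lie before the annotated gene, while the matches of Arntl and Tef, the CACGTT of Per2 and the CACGTG of Nr1d1 fall inside the gene's annotated span. TTATGTAA stood in the window of Per2 alone among the members. Of 33469 promoter windows of the same length, 5.59% held CACGTG, 4.07% CACGTT, 0.828% TTATGTAA and 14.1% AGGTCA. Counted over any window of a gene, each of the first 2 and the last was found in 2 of the 10 members, and the D-box in 1. Clock and Nr1d1 had 2 windows each, so these counts are per gene while the percentages are per window. Nothing in the window of Dbp matched these letters, which says only that they are absent from these 250 bases.

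On the 13 arrays the processed signal had a 75th percentile of 760.4 to 908.7, the share of spots above background by the scanner software's criterion ran from 55.2% to 67.8%, and no spot was saturated. The lowest shares were 55.2% on WT heart 2, a labeling of WT rat 1, and 58.7% on WT heart 6. Every other array had 61.5% or more. Per2 and Nr1d2 were not well above background on WT heart 2. The number of arrays limits the precision, and the p-values measure the spread between these rats. The probe for rat Adrb3 was well above background on 1 of 7 ADBR3 overexpressing arrays and 0 of 6 WT arrays. It does not check a receptor of another species or a construct without the probed stretch. The ventricular markers Myh6, Actc1, Tnnt2 and Myl2 were well above background on all 13 arrays, and the liver markers Alb and Apoa1 on none. Below, a level is log2 of the signal relative to the 75th percentile of its own array, and levels of different genes cannot be set against each other because their probes differ.

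No clock member passed the test of a difference between the groups. In limma's fit over 15367 genes 0 of the 9 tested members passed an adjusted p of 0.05, where 0.00651% of all genes, a single one, did. At an unadjusted p under 0.05, 1 of 9 members, Tef, was called, against 9.44% of all genes (3.15% higher and 6.29% lower in ADBR3 overexpressing rats). The smallest exact two-sided permutation p over all splits of the rats was 0.0556, again for Tef. The level was higher in ADBR3 overexpressing rats for 8 of the 9, against 46.7% of all genes, and the median difference of the 9 was 0.046, against -0.0089 over all genes. That count fell to 4 without WT rat 1 or without WT rat 3, and to 5 without ADBR3 overexpressing rat 1. No member had groups that did not overlap, which 3.52% of all genes had.

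**Figure D1:**
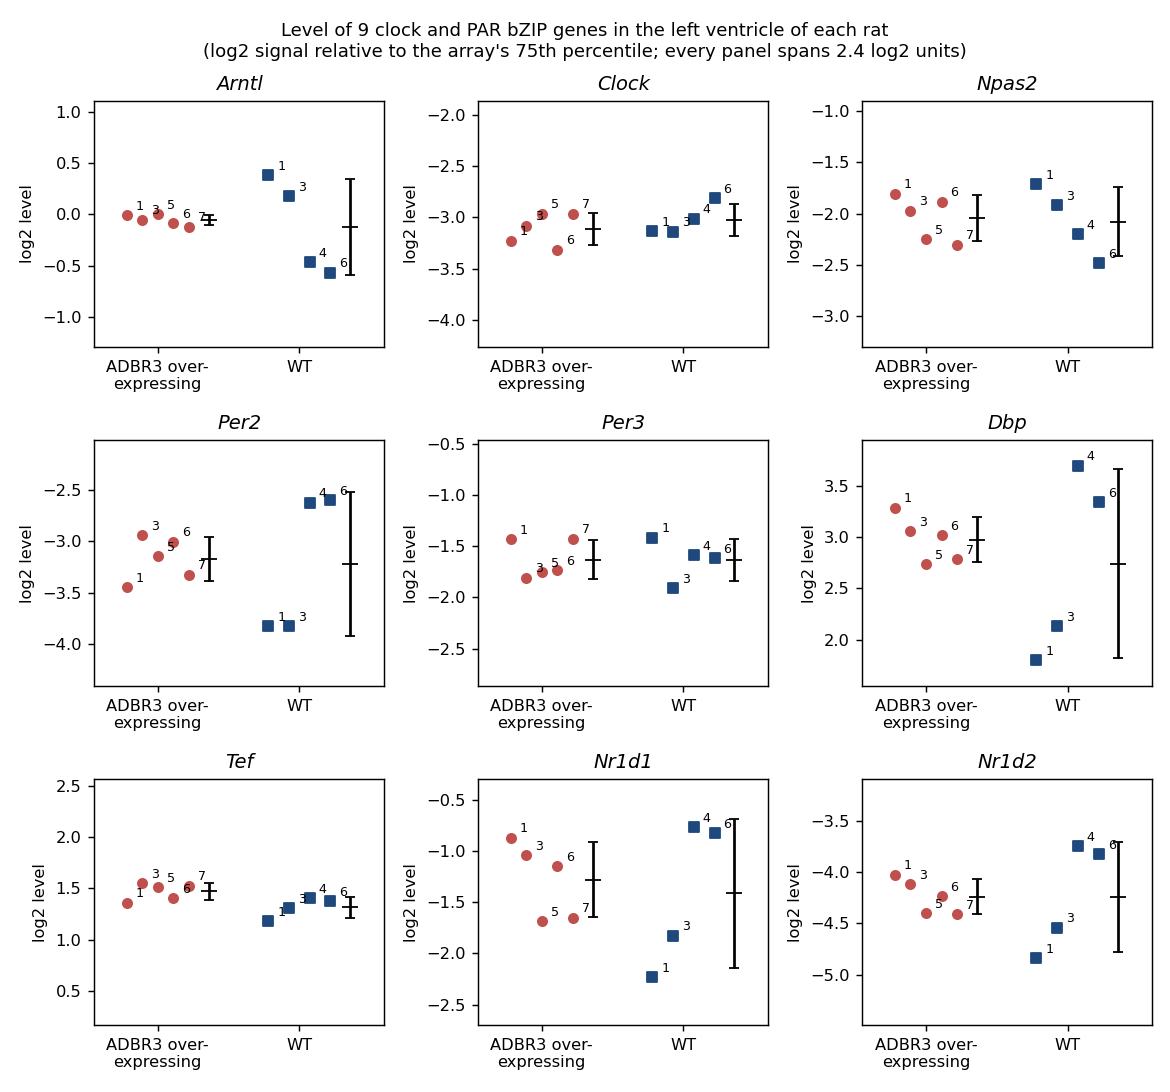
Level of each of the 9 tested members in every rat, as log2 of the signal relative to the array's 75th percentile. Red circles are the 5 ADBR3 overexpressing rats and blue squares the 4 WT rats, numbered by heart, with the mean and SD as a black bar. For Arntl, Per2, Dbp, Nr1d1 and Nr1d2 the ADBR3 overexpressing rats sit between WT rats 1 and 3 at one end and WT rats 4 and 6 at the other.

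Among the activators, Arntl, the partner that CLOCK and NPAS2 share, had levels of -0.0067, -0.050, 0.0016, -0.085 and -0.12 in ADBR3 overexpressing rats 1, 3, 5, 6 and 7, against 0.38, 0.18, -0.47 and -0.57 in WT rats 1, 3, 4 and 6. WT rats 1 and 3 were above all ADBR3 overexpressing rats and WT rats 4 and 6 below all of them. The means were -0.052 ± 0.051 (SD, n = 5) in ADBR3 overexpressing rats and -0.12 ± 0.47 (SD, n = 4) in WT rats, a difference of 0.067 with a 95% interval of -0.35 to 0.49 (limma adjusted p = 0.933). The second kept probe of Arntl showed the same split of the WT rats, though WT rat 4 and not rat 6 was lowest. Its levels were -2.37 to -2.20 in ADBR3 overexpressing rats, against -1.94 and -2.09 in WT rats 1 and 3 and -2.93 and -2.74 in WT rats 4 and 6.

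Clock, the histone acetyltransferase partner of ARNTL, was at -3.23, -3.08, -2.97, -3.315 and -2.965 in ADBR3 overexpressing rats 1, 3, 5, 6 and 7, against -3.14, -3.14, -3.01 and -2.81 in WT rats 1, 3, 4 and 6. The groups overlapped, and it was the member whose mean was lower in ADBR3 overexpressing rats, by a difference of -0.086 (interval -0.31 to 0.14). Its other probe was well above background on 1 of 7 ADBR3 overexpressing arrays and 1 of 6 WT arrays and was not tested. Npas2, which can stand in for CLOCK, was at -1.805, -1.97, -2.245, -1.88 and -2.30 in ADBR3 overexpressing rats, against -1.71, -1.92, -2.20 and -2.48 in WT rats. All ADBR3 overexpressing rats lay within the range of the WT rats, with WT rat 1 highest and WT rat 6 lowest. The 2 kept probes of Npas2 did not give the same picture: the dimmer one spanned 0.28 over the WT rats, against 0.77 for the brighter, and its group difference was -0.11 instead of 0.036.

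Of the repressors, Per2, which joins CRY proteins to block the activators, had levels of -3.45, -2.94, -3.145, -3.01 and -3.33 in ADBR3 overexpressing rats 1, 3, 5, 6 and 7, against -3.83, -3.83, -2.625 and -2.60 in WT rats 1, 3, 4 and 6. WT rats 1 and 3 were lowest and WT rats 4 and 6 highest, the reverse of Arntl. The mean difference was 0.046 with an interval of -0.61 to 0.70. Per2 was well above background on all 7 ADBR3 overexpressing arrays and on 5 of 6 WT arrays.

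Per3, the third period gene, was at -1.43, -1.81, -1.76, -1.73 and -1.43 in ADBR3 overexpressing rats, against -1.42, -1.91, -1.59 and -1.62 in WT rats. Here WT rats 1 and 3 stood at opposite ends of the range, and the difference of 0.0036 had an interval of -0.27 to 0.28. The other 2 probes of Per3 were well above background on 0 of 7 ADBR3 overexpressing arrays and on at most 1 of 6 WT arrays. Per1, the period gene that glucocorticoids also induce, was well above background on 2 of 7 ADBR3 overexpressing arrays and 1 of 6 WT arrays and was not tested. Its levels ran from -5.32 to -4.83 in ADBR3 overexpressing rats and from -5.76 to -4.68 in WT rats.

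Dbp, the PAR bZIP factor and a direct target of the activators, had levels of 3.29, 3.05, 2.73, 3.02 and 2.785 in ADBR3 overexpressing rats 1, 3, 5, 6 and 7, against 1.80, 2.13, 3.69 and 3.34 in WT rats 1, 3, 4 and 6. WT rats 4 and 6 were above every ADBR3 overexpressing rat and WT rats 1 and 3 below every one, so that the WT rats differed 3.72-fold between lowest and highest, and the ADBR3 overexpressing rats 1.47-fold. The means were 2.975 ± 0.22 (SD, n = 5) in ADBR3 overexpressing rats and 2.74 ± 0.92 (SD, n = 4) in WT rats, a difference of 0.234 (interval -0.60 to 1.07, limma adjusted p = 0.855). The sign of that difference was not the same in every batch. On slides numbered here it was -0.91 on slide 1, with WT rat 4, and 0.70 on slide 3, with WT rats 1 and 6. Each of those slides held 1 ADBR3 overexpressing rat. Counting the repeated hybridizations, it was -0.76 on slide 4, where the 1 WT array was heart 5. By scan day it was -0.65 on the first day, with 1 WT rat, and 0.58 on the second, with 3 rats a group. The part of the batch and that of the WT rats it held cannot be told apart here.

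The other 2 probes of Dbp gave the same order of the WT rats. The first had levels of 1.51 to 2.24 in ADBR3 overexpressing rats, against 0.77 and 1.12 in WT rats 1 and 3 and 2.62 and 2.21 in WT rats 4 and 6. The second, on a single spot, ran from 0.75 to 1.32 in ADBR3 overexpressing rats and from -0.031 to 1.92 in WT rats, and differed by 0.94 between the labelings of ADBR3 overexpressing rat 1.

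Tef, the other PAR bZIP factor, was at 1.36, 1.55, 1.51, 1.405 and 1.525 in ADBR3 overexpressing rats, against 1.18, 1.30, 1.40 and 1.37 in WT rats. The groups overlapped, since rat 1 of the ADBR3 overexpressing group lay below WT rats 4 and 6. The difference of 0.15, or 1.11-fold, had an interval of 0.0072 to 0.30, with an unadjusted p of 0.0417 and an adjusted p of 0.515 in limma's fit. It had the same sign within scan day 1 (0.063) and scan day 2 (0.15). With scan day as a block it was 0.12 (limma adjusted p = 0.621) and with slide as a block 0.12 (limma adjusted p = 0.968), and neither fit called it at an unadjusted p under 0.05. Tef was the member with the narrowest spread over the 9 rats, an SD of 0.12, near the 0.14 of the median gene.

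Nr1d1, the REV-ERB receptor that represses Arntl, had levels of -0.87, -1.04, -1.69, -1.15 and -1.65 in ADBR3 overexpressing rats 1, 3, 5, 6 and 7, against -2.23, -1.83, -0.77 and -0.83 in WT rats 1, 3, 4 and 6. Its ADBR3 overexpressing rats were less tight than those of Dbp, with rats 5 and 7 close to WT rat 3 and rat 1 close to WT rat 6. The difference was 0.135 (interval -0.60 to 0.87). Nr1d2, its close relative, was at -4.03, -4.12, -4.40, -4.235 and -4.41 in ADBR3 overexpressing rats, against -4.84, -4.54, -3.75 and -3.83 in WT rats, again with WT rats 1 and 3 below and 4 and 6 above all ADBR3 overexpressing rats. Its difference was 0.0014 (interval -0.50 to 0.51), and the labelings of WT rat 1 differed by 0.60 for it.

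**Figure D2:**
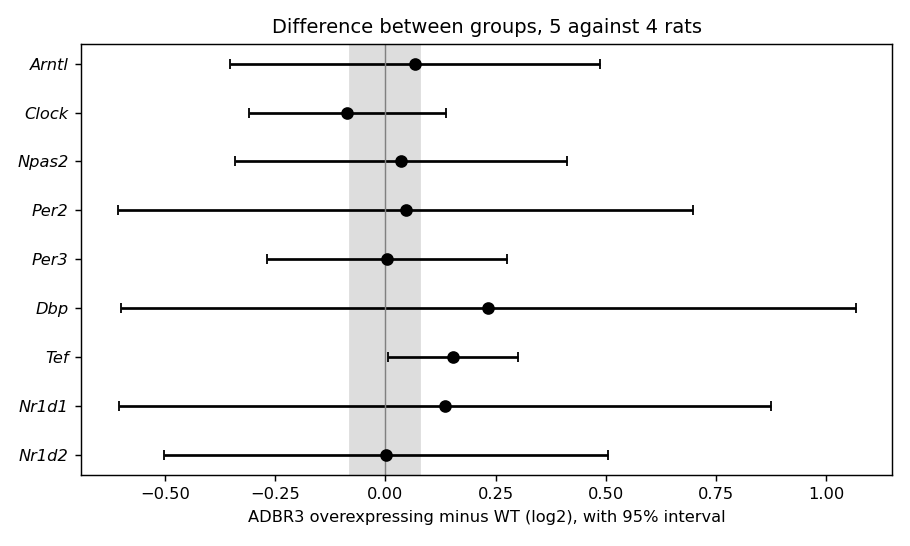
Difference between the group means of each tested member, ADBR3 overexpressing minus WT, in log2 units, with the 95% interval of limma's fit. The grey band marks the size of the median gene's difference, 0.080, and the interval of Tef alone leaves out 0.

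Most members varied more among WT rats than among ADBR3 overexpressing rats. For 7 of the 9, all but Clock and Tef, every ADBR3 overexpressing rat lay inside the range of the WT rats, against 16.3% of all genes. The SD among WT rats was at least 2 times that among ADBR3 overexpressing rats for 4 of the 9, against 13.6% of all genes: Arntl, with an SD of 0.051 in ADBR3 overexpressing rats and 0.47 in WT rats, Per2 with 0.21 and 0.70, Dbp with 0.22 and 0.92, and Nr1d2 with 0.17 and 0.54. The median gene had an SD of 0.125 in ADBR3 overexpressing rats and 0.12 in WT rats. Ranked by the ratio of the 2 SDs among 15367 genes, Arntl stood at 23, Dbp at 290, Per2 at 558 and Nr1d2 at 611. Of these counts no test was made, and the members are not separate observations, since several varied together over the same 4 WT rats. WT rats 1 and 6, which lay on opposite sides of all ADBR3 overexpressing rats for Arntl, Npas2, Per2, Dbp, Nr1d1 and Nr1d2, were on the same slide and scanned on the same day. WT rat 4 was on slide 1 and scanned on the other day, and WT rat 3 was the one array on slide 5. Between the labelings of 1 rat, the tested probes of the members differed by at most 0.14 in ADBR3 overexpressing rat 1 and, Nr1d2 aside, by at most 0.23 in WT rat 1. The cause of the wider spread among WT rats was not tested.

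**Figure D3:**
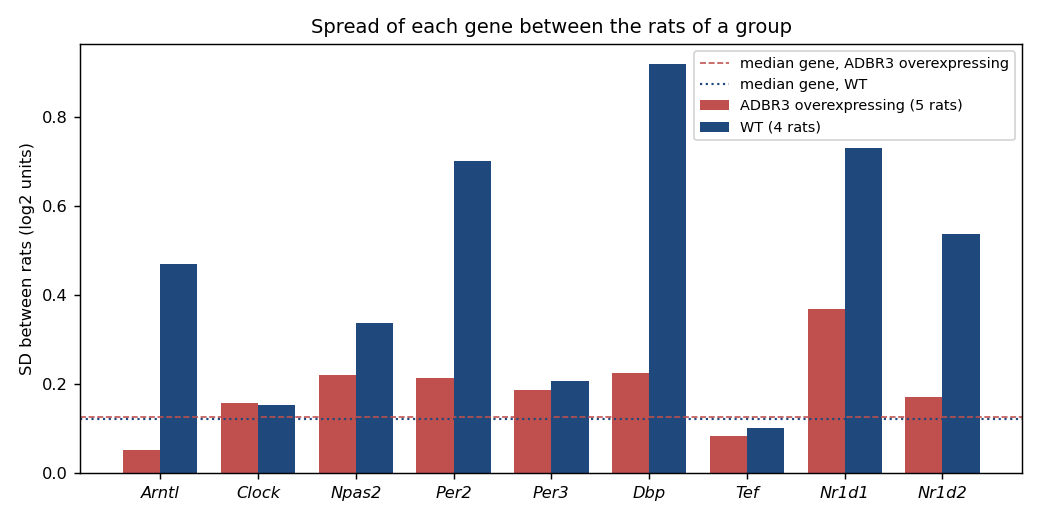
SD of each tested member between the rats of a group, in log2 units, with ADBR3 overexpressing rats as red bars (n = 5) and WT rats as blue bars (n = 4). The lines mark the SD of the median gene, 0.125 in ADBR3 overexpressing rats and 0.12 in WT rats, and the WT bars of Arntl, Per2, Dbp, Nr1d1 and Nr1d2 stand between 0.47 and 0.92.

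Several members moved with each other from rat to rat. Of 36 pairs of members, 12 correlated over the 9 rats at an exact permutation p adjusted over the 36 pairs under 0.05, 7 positively and 5 negatively, and 10 did by Spearman's rho. The pairs lost by rho were Arntl with Nr1d2 and Arntl with Npas2, with Spearman adjusted exact p of 0.0834 and 0.151. The p-values printed with the pairs below are those of r. The share of pairs of other genes that would pass in these rats was not computed. Dbp and Nr1d1 put the 9 rats in one and the same order (r = 0.954, rho = 1.0, adjusted exact p = 6.61e-05), and Dbp and Nr1d2 (r = 0.967, rho = 0.983) and Nr1d1 and Nr1d2 (r = 0.972, rho = 0.983) came close to it. Without the 2 rats farthest from the median, WT rats 1 and 3, these 3 pairs still had r of 0.910, 0.967 and 0.932. The 3 pairs passed the threshold under each of the 16 alternatives tried, as did Arntl with Per2.

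Arntl ran against Per2, Dbp and both REV-ERB receptors, but not past the threshold against Per3 or Tef. Its r was -0.909 with Per2 (rho = -0.85, exact p = 0.00132, adjusted p = 0.00956 for r), -0.866 with Dbp (rho = -0.817, adjusted exact p = 0.0184 for r), -0.898 with Nr1d2 (rho = -0.75, adjusted exact p = 0.00956 for r) and -0.804 with Nr1d1 (rho = -0.817, adjusted exact p = 0.0205 for r). Without WT rats 1 and 6, the farthest from the median of Arntl, these 4 values were -0.842, -0.841, -0.799 and -0.635, with exact permutation p of 0.0256, 0.0379, 0.0343 and 0.0946. Leaving out the farthest rats narrows the range and leaves fewer rats, which by itself can lower r and raise p. Arntl and Npas2 varied together (r = 0.782, rho = 0.683, adjusted exact p = 0.0354 for r), but r was 0.454 without the same 2 rats (exact permutation p = 0.347). Clock ran against Npas2 (r = -0.884, rho = -0.883, adjusted exact p = 0.0100), with r of -0.716 and adjusted exact p = 0.0954 when arrays were scaled to their median.

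Per2 followed Dbp (r = 0.858, adjusted exact p = 0.0179), Nr1d2 (r = 0.853, adjusted exact p = 0.0179) and Nr1d1 (r = 0.797, adjusted exact p = 0.0378). Without WT rats 1 and 3, the farthest from the median of Per2, the 3 values were 0.597, 0.693 and 0.530, with exact permutation p of 0.161, 0.0909 and 0.215. The range was narrower there too. Per3 and Tef passed the threshold with no other member. Leaving out 1 WT rat at a time left 5 called pairs without rat 1, 7 without rat 3, 8 without rat 4 and 7 without rat 6. Scan day 2 was the one batch with 6 rats, 3 of each group. Within it all 12 pairs kept their sign and 3 passed the adjustment: Dbp with Nr1d1 (r = 0.969), Dbp with Nr1d2 (r = 0.956) and Nr1d1 with Nr1d2 (r = 0.960), each at an adjusted exact p of 0.0167, where the smallest unadjusted p that 6 rats allow is 0.00139. Arntl had r of -0.908 with Per2 and -0.864 with Dbp within that day. No slide held enough rats for its own value.

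**Figure D4:**
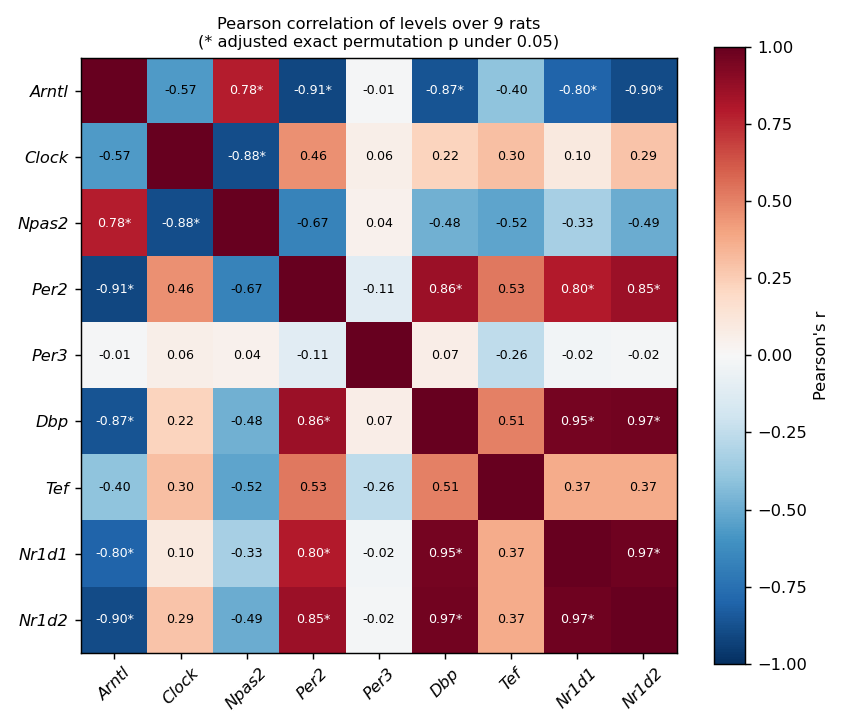
Pearson's r between the levels of each pair of tested members over the 9 rats, red for positive and blue for negative, with a star where the exact permutation p adjusted over 36 pairs is under 0.05. Dbp, Nr1d1, Nr1d2 and Per2 form a positive block with r of 0.797 to 0.972, and Arntl is negative with each of them.

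**Figure D5:**
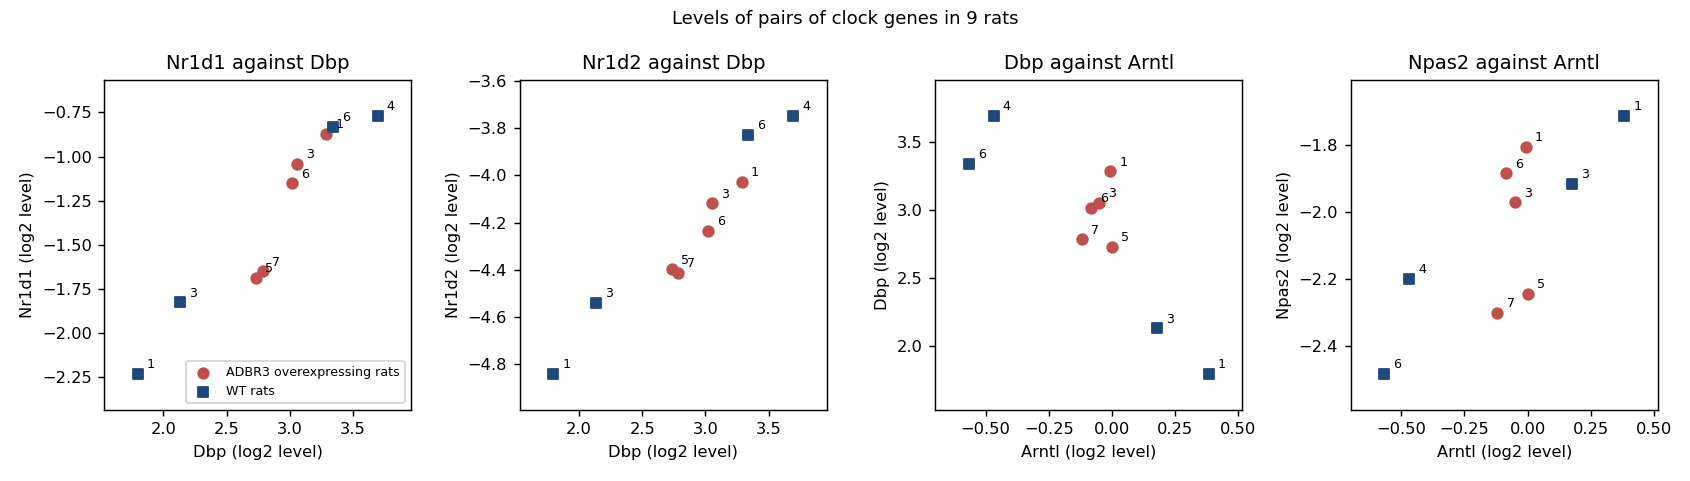
Level of one member against another in each rat, both as log2 of the signal relative to the array's 75th percentile, with ADBR3 overexpressing rats as red circles and WT rats as blue squares, numbered by heart. Nr1d1 and Nr1d2 climb with Dbp through both groups, while Dbp falls as Arntl climbs, mainly from WT rats 4 and 6 to WT rats 1 and 3.

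Taken rat by rat, the level of Arntl minus that of Dbp was -3.29, -3.10, -2.73, -3.10 and -2.90 in ADBR3 overexpressing rats 1, 3, 5, 6 and 7, against -1.42, -1.96, -4.16 and -3.91 in WT rats 1, 3, 4 and 6. The mean of the 3 activators minus the mean of the 6 tested repressors and outputs lay between -0.825 and -0.61 in the ADBR3 overexpressing rats, against 0.068, -0.18, -1.29 and -1.26 in WT rats 1, 3, 4 and 6. On both measures the ADBR3 overexpressing rats fell into the gap between the WT rats. The offset of such a difference depends on the probes, so its order over rats is what can be read.

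Of 19 further clock genes, 14 were tested, and 0 passed the threshold in limma's fit. The mean was higher in ADBR3 overexpressing rats for 10 and lower for 4, with a median difference of 0.055. Of all genes tested, 46.7% were higher and 9.44% were called without adjustment. Csnk1e, a casein kinase that marks PER for decay, was the 1 of these 14 called without adjustment and is named here after its values were seen (difference 0.14, limma adjusted p = 0.506). Nfil3 and Cry1 were higher in WT rats 1 and 3 than in WT rats 4 and 6, as Arntl was. Nfil3, the repressor that competes with DBP for the D-box, was at -1.32 to -0.99 in ADBR3 overexpressing rats, against -0.62, -0.88, -1.64 and -1.42 in WT rats 1, 3, 4 and 6. Cry1, a cryptochrome repressor, was at -1.13 to -0.84 in ADBR3 overexpressing rats, against -0.62, -0.865, -1.08 and -1.27 in those WT rats.

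Bhlhe41, an E-box repressor also called DEC2, had levels of -4.92 to -4.10 in ADBR3 overexpressing rats, against -5.565, -5.41, -4.32 and -4.965 in WT rats 1, 3, 4 and 6, the reverse order among WT rats. Its difference of 0.55 had an unadjusted p of 0.0607 and an adjusted p of 0.529. Bhlhe40 (0.011), Cry2 (-0.039) and Rora (0.16), the first 2 repressors and the last an activator of Arntl, had small differences with adjusted p of 0.991, 0.868 and 0.643.

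Genes known as outputs of the clock or of PAR bZIP factors in mice were tested for 13 of 13, with 0 past the threshold, 8 higher and 5 lower in ADBR3 overexpressing rats (46.7% of all genes were higher), a median difference of 0.039, and 1 at an unadjusted p under 0.05, against 9.44% of all genes. That one was Dgat2, an enzyme of triglyceride synthesis, at -0.18, 0.17, -0.0082, 0.195 and -0.057 in ADBR3 overexpressing rats, against -0.27, -0.45, -0.43 and -0.16 in WT rats. Rat 1 of the ADBR3 overexpressing group was the one below a WT rat, and the difference of 0.35 had an unadjusted p of 0.0053 and an adjusted p of 0.348. Klf15, a transcription factor that drives Kcnip2 in mouse heart, differed by 0.28 (adjusted p = 0.529) and Kcnip2, a subunit of the transient outward potassium channel, by 0.17 (adjusted p = 0.536). Por, the electron donor of cytochrome P450 enzymes, differed by 0.15 (adjusted p = 0.526).

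Genes induced by glucocorticoids stand beside Per1 and the other clock genes because the hormone follows the day and resets peripheral clocks. All 7 were tested and 0 passed the threshold, with 6 higher and 1 lower and a median difference of 0.12, where 46.7% of all genes were higher. Dusp1, a MAP kinase phosphatase, was the 1 of these 7 called without adjustment, against 9.44% of all genes, at a difference of 0.37 (limma adjusted p = 0.422). Sgk1, a kinase, differed by 0.18 (adjusted p = 0.559), Cebpd, a transcription factor, by 0.16 (adjusted p = 0.784) and Fkbp5, a chaperone partner of the receptor, by 0.12 (adjusted p = 0.848). Cebpd was at 1.36, 1.28, 1.47 and 1.88 in WT rats 1, 3, 4 and 6, and Fkbp5 at 0.98, 1.18, 0.91 and 1.70. WT rats 1 and 3 were thus below WT rats 4 and 6 for Cebpd, as for Dbp, but not for Fkbp5. The split seen for Cebpd also held for Sgk1, Klf9 and Zbtb16, the last 2 named after their values were seen, and not for Tsc22d3 or Dusp1. It was narrow for Sgk1, with WT rat 1 at -1.221 and WT rat 4 at -1.211. For Klf9 it was narrow too, with WT rat 3 at 1.6 and WT rat 4 at 1.618. The share of all genes with this split was not computed.

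Likeness to Arntl and Dbp was ranked over 11022 gene symbols, with the members, all listed genes and LOC or RGD names left out beforehand. Among these the level most like that of Arntl over the 9 rats was that of Tmprss9, a membrane serine protease, with r of 0.983. It was followed by Rbp2 (0.943), Dydc1 (0.921), Cd300lg (0.913) and Rpl36 (0.903). The most opposite were Lpin3 (-0.933), Necap2 (-0.919), Recql5 (-0.918), Rbmxrtl (-0.916) and Slc7a4 (-0.913). These are descriptions, since the highest of so many values is high in any data. Cd300lg, an endothelial surface receptor, spanned far more than any clock gene: it was at 0.50 to 1.81 in ADBR3 overexpressing rats, against 1.88, 1.67, -3.23 and -3.17 in WT rats 1, 3, 4 and 6. Rbp2, a retinol-binding protein, was at 2.39 to 2.99 in ADBR3 overexpressing rats, against 3.22, 3.07, 0.98 and 1.24 in those WT rats. In both genes, picked for their likeness to Arntl, WT rats 4 and 6 stood apart from the 7 other rats, and the part of what they share in the clock values was not tested.

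Nr1d2 and Nr1d1, left out of this ranking as members, had r of 0.967 and 0.954 with Dbp. Among the ranked symbols the closest to Dbp were Dnase2 (0.936), Irak2 (0.934), Prmt5 (0.918), Tbx6 (0.909) and Ccnj (0.902). The most opposite were Ndfip1 (-0.945), Dpm1 (-0.921), Rab3ip (-0.902), Usp39 (-0.901) and Hace1 (-0.890). Most of them moved little. Irak2, a kinase of interleukin-1 signalling, was at -1.58 to -1.34 in ADBR3 overexpressing rats, against -1.995, -1.75, -1.25 and -1.28 in WT rats 1, 3, 4 and 6, and Ndfip1 had an SD of 0.043 over the 9 rats.

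In pieces of whole ventricle, fewer cells of a type and less RNA per cell cannot be told apart. The 6 ventricular markers had none past the threshold, and their summed signal lay between 1837 and 2082 times the 75th percentile in ADBR3 overexpressing rats and between 1660 and 2175 times in WT rats. Atrial markers had sums of 34.5 to 251 in ADBR3 overexpressing rats and 46.7 to 99.0 in WT rats, and Nppa, Myl7 and Sln were all highest in ADBR3 overexpressing rat 6, a rat in the middle of the range of Dbp. The adipocyte markers, of which Adipoq alone was well above background on any array, summed to 0.011 to 0.72 in ADBR3 overexpressing rats and 0.057 to 0.15 in WT rats. The 4 endothelial markers summed to at most 27.6 in ADBR3 overexpressing rats and 28.2 in WT rats, and the 3 fibroblast markers to 28.3 to 32.9 in ADBR3 overexpressing rats and 27.3 to 33.3 in WT rats. The part of cell makeup in the clock values was not tested.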

How the data were processed

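RNA of the left ventricle was labelled with Cy3 and read on Agilent arrays. The deposited scanner files hold each spot's intensity, background-subtracted and detrended in Agilent Feature Extraction 10.7.1.1 on design 028279 (build rn4), per the file headers. The deposited value table is in natural log units, as its match to the scanner signals shows, with column medians of 5.695 to 5.73 and a scaling between arrays not given in the sources used here, and served as an alternative. Levels are log2 processed signal minus the array's 75th percentile over 58717 non-control spots, averaged per probe and then per rat. Probes well above background in at least 4 of 9 rats were kept (17587), with the probe of highest mean per gene name. Groups were compared with limma 3.58.1 in R 4.3.3, adjusted by Benjamini-Hochberg over all genes at 0.05, and by exact permutation tests. Correlations used exact permutations in Python 3.11.15 with numpy 2.4.6 and pandas 2.3.3, and plots matplotlib 3.10.9. The scripts were tested on simulated data. The members and lists were chosen with earlier results of these data known. All members with all probes are named, up to 6 of the other clock genes in a set order, and of each other list up to 4 with the smallest p. Also named are the 5 symbols outside the members and lists with the highest and lowest r with Arntl and with Dbp. Symbols are those of the array design; Ciart and Cipc were matched through RefSeq, and listed genes with no matching name were not analysed here.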

Additional observations from a re-analysis of the deposited data

How the results depend on the processing

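None of the 9 members passed the threshold under any alternative, with the smallest adjusted p in a limma fit between 0.4076 (normexp background correction with the 75th percentile) and 0.9676 (slide as a block). The signs of the small group differences did not hold. The count of members higher in ADBR3 overexpressing rats was 5 of 9 with normexp and the 75th percentile, against 8, and ran from 4 to 8 without 1 rat. Differences with the opposite sign were -0.0277 for Per2, -0.023 for Per3 and -0.063 for Nr1d2 with normexp and the 75th percentile, 0.0050 for Clock and -0.0068 for Per3 with normexp and quantile normalization, and 0.0038 for Clock, -0.011 for Per3 and -0.0267 for Nr1d2 with the authors' deposited values. They were -0.037 for Npas2 with the mean of its probes, -0.476 for Per2 and -0.15 for Nr1d2 with slide as a block, -0.067 for Per2 and -0.0316 for Nr1d2 with scan day as a block, and -0.0735 for Nr1d2 with heart 1 alone for WT rat 1, an alternative chosen after seeing the data. The cause of these changes was not tested.

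Without 1 rat, differences ran from -0.082 to 0.234 for Arntl, -0.099 to 0.158 for Npas2, -0.157 to 0.252 for Per2, -0.089 to 0.076 for Per3, -0.080 to 0.551 for Dbp, -0.138 to 0.35 for Nr1d1 and -0.199 to 0.166 for Nr1d2. Clock stayed below 0 and Tef above 0 in all of these, though the unadjusted call of Tef was lost without ADBR3 overexpressing rats 3, 5 or 7 or WT rats 1 or 3, with slide or scan day as a block, with quantile normalization, with no filter on dim probes and in the rats of shared numbers. The number of correlated pairs ran from 5 to 12 without 1 rat.

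Rats 1, 3 and 6 carry the same numbers in both groups. Their deviations from the group means correlated at 0.106, 0.0347 and 0.124 over genes, low values, though each correlated best with its own number. Whether rats of 1 number share more than the number cannot be told from these values. With the number as a replicate block the differences of Arntl and Per3 were -0.0445 and -0.0061, those of Dbp, Nr1d1, Per2 and Nr1d2 were 0.696, 0.61, 0.286 and 0.278, and 0 members passed. In those 6 rats the block cannot alter a difference, since each number is in both groups, and the values with no block were the same. They thus come with the choice of rats. Signals near background limit Per1, Per2, Nr1d2 and, among the other clock genes described, Bhlhe41.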

Other observations

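The 2 repeated hybridizations that entered no comparison can be given as values. ADBR3 overexpressing heart 4 had levels of -0.073 for Arntl, 3.07 for Dbp, -1.07 for Nr1d1 and -2.90 for Per2, and WT heart 5 had levels of -0.46 for Arntl, 3.701 for Dbp, -0.81 for Nr1d1 and -2.605 for Per2. Heart 4 lay close to the ADBR3 overexpressing rats for these genes, and heart 5 beside WT rats 4 and 6. Nr1d2 read -3.96 on ADBR3 overexpressing heart 4, above all 5 rats of its group, and -3.97 on WT heart 5.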
